A study of Homo sapiens with 24 samples.

Results

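Polyamine metabolism genes were examined as a set of 10, picked by symbol: ODC1, AMD1, SRM and SMS for synthesis, OAZ1 and AZIN1 for control of the first enzyme, SAT1, SMOX and PAOX for breakdown, and ATP13A3 for transport. All 10 are listed in each of the 4 tables used, which together hold 39772 genes (LAN5 33561, IMR5 30271, SK-N-FI 32760 and SK-N-BE(2) 29328). The groups are 4 established human neuroblastoma cell lines exposed to 1 µM GSK-J4 for 72 hours, each against untreated cells of the same line, with 3 libraries per group and 24 in all. LAN5 and IMR5 are labelled as sensitive to the compound with amplified MYCN, SK-N-FI as sensitive with wild-type MYCN, and SK-N-BE(2) as resistant with amplified MYCN. GSK-J4 enters cells as an ester and blocks the demethylases KDM6A and KDM6B, which take methyl groups off a repressive mark of histone H3. Each class rests on few lines, since 1 line is resistant and 1 is wild type for MYCN, so the line and its class cannot be told apart.

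Polyamines (putrescine, spermidine and spermine) are small positively charged molecules that bind RNA and chromatin and are needed for growth. ODC1 makes putrescine from ornithine in the rate-limiting step, AMD1 makes the aminopropyl donor, and SRM and SMS use that donor to build spermidine and spermine. Antizyme (OAZ1) sends ODC1 to the proteasome, and AZIN1, an inactive relative of ODC1, binds antizyme in its place. SAT1 acetylates spermidine and spermine for export or for oxidation by PAOX, SMOX oxidises spermine directly and releases hydrogen peroxide, and ATP13A3 is a polyamine-transporting ATPase. ODC1 is a textbook target of MYC and MYCN, and the ODC1 inhibitor difluoromethylornithine is used in the treatment of neuroblastoma.

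Start-site sequences are shown for SRM and AMD1, which fell in every sensitive line, and for SAT1, which rose in each, with the ODC1 site that carries the motif bound by MYC family factors. Windows of 250 bases before RefSeq starts (GRCh38.p14) were searched on both strands for CACGTG (E-box), TGATGNAA (an ATF4 and CHOP type element) and TGACNNNGC (an antioxidant response type element). Capitals mark a match, and all sequences run 5′ to 3′ along the gene.
SRM, chr1:11060019-11060268, minus strand: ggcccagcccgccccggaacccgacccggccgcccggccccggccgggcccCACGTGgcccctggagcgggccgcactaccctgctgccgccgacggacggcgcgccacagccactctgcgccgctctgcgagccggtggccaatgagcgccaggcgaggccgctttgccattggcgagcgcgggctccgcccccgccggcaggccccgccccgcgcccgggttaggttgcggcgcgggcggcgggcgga
AMD1, chr6:110874535-110874784, plus strand: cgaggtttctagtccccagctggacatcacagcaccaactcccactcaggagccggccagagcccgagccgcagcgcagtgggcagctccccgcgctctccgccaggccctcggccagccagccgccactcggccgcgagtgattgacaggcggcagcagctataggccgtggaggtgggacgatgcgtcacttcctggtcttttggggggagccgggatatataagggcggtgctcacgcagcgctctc
SAT1, chrX:23782923-23783172, plus strand: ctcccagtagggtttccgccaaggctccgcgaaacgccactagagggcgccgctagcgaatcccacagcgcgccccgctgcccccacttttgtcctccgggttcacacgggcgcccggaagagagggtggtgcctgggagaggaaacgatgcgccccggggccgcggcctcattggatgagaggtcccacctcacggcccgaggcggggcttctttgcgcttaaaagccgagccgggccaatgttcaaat
ODC1 site, chr2:10448026-10448051, minus strand: gggccccgggCACGTGtgcggcgcgc

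The windows covered 10 RefSeq starts of 7 members. They are not all separate: the AMD1 windows from 110874534 and from 110874535 overlap almost wholly. The ATP13A3 window, 194468386 to 194468635, lies inside that gene as annotated in GENCODE 29. For OAZ1 and ATP13A3, bases shortly after the RefSeq start were found in no GENCODE 29 transcript of the gene. CACGTG was found in 2 of the 10, at bases 199 to 194 before the SRM start and at bases 29 to 24 before 1 of the ODC1 starts; the ODC1 match lies in no ODC1 exon of GENCODE 29 and is spanned by 2 of its transcripts. Of all 35116 RefSeq windows of this length, 6.34% hold CACGTG, 3.14% hold TGATGNAA and 10.9% hold TGACNNNGC, and neither of the last 2 motifs was found in the 10 windows. On GRCh38, ODC1 lies on chromosome 2 from 10439968 to 10448504 (ENSG00000115758), 5.49 megabases from MYCN, AMD1 on chromosome 6 from 110874770 to 110895713 (ENSG00000123505) and SRM on chromosome 1 from 11054584 to 11060024 (ENSG00000116649). SMS on chromosome X from 21940573 to 21994835 (ENSG00000102172) and SAT1 on X from 23783173 to 23786226 (ENSG00000130066) have the same orientation, and SMOX lies on chromosome 20 from 4120980 to 4187747 (ENSG00000088826). OAZ1 lies on chromosome 19 from 2269509 to 2273490 (ENSG00000104904), PAOX on chromosome 10 from 133379234 to 133391694 (ENSG00000148832), ATP13A3 on chromosome 3 from 194402672 to 194498364 (ENSG00000133657) and AZIN1 on chromosome 8 (ENSG00000155096). GENCODE 29 names 4 pseudogenes of AMD1 and 2 of SRM. ODC1, OAZ1, PAOX and ATP13A3 each overlap 1 gene of the same strand (SNORA80B, AC005258.1, AL360181.3 and AC108676.1), and AZIN1, OAZ1 and ATP13A3 overlap genes of the opposite strand. Reads of these members may be shared with those features.

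The tables give, for each gene, 1 mean over both conditions, the fold change with its standard error, and p-values, with no value of a single library, so depth per library is unknown and no spread within a group can be shown. The direction of the fold changes is not stated in the tables and was taken as GSK-J4 over untreated. This rests on BBC3, an apoptosis gene known from the study as induced, given in the authors' deposited tables at 2.62 ± 0.246, 3.31 ± 0.179 and 1.88 ± 0.206 (log2, SE) for LAN5, IMR5 and SK-N-FI. BBC3 was not called in SK-N-BE(2), where the direction rests on the metal response genes MT2A (1.47 ± 0.0795) and SLC30A1 (0.57 ± 0.0555), positive in all 4 of the authors' deposited tables. The table read as SK-N-FI was assigned by a near match of its name. Of 10 adrenergic neuroblastoma markers 9 or 10 were listed per line, each with a mean of at least 100 except DBH in SK-N-BE(2). After GSK-J4, 0 rose and 9 fell of 10 in LAN5, and 4 rose and 4 fell of 9 in IMR5. In SK-N-FI 1 rose and 6 fell of 9, and in SK-N-BE(2) 0 rose and 6 fell of 10. Of all tested genes, 22.5%, 22.6%, 16.8% and 1.62% were called higher in LAN5, IMR5, SK-N-FI and SK-N-BE(2). Those called lower were 19.2%, 21.6%, 14.8% and 0.858%. Among genes that reach a mean of 100, 67%, 69.6%, 49.1% and 2.87% were called in either direction. Levels are given in CPM, the mean normalized count scaled so that each table sums to 1000000. Summed levels of 5 fibroblast and muscle markers were 50.4, 76.6 and 155 CPM in LAN5, IMR5 and SK-N-FI and 2056 CPM in SK-N-BE(2), mostly LUM and DCN. The part of these marker lists in the results was not tested. Schwann and glial markers summed to between 3.17 and 13.1 CPM and immune and endothelial markers to between 0.103 and 9.67 CPM. Deposited fold changes are pulled toward 0 by a prior, most strongly in SK-N-BE(2), so sizes are given below with the prior removed, as log2 fold change ± SE, and calls follow the authors' adjusted p under 0.05. A level split into treated and untreated parts is an implied level: the mean of the table in CPM, split between the conditions by the prior-removed fold, with no error of its own. Fewer cells in a state and less RNA per cell cannot be told apart in these bulk samples.

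Among the synthesis genes AMD1 and SRM fell in LAN5, IMR5 and SK-N-FI, SMS fell in LAN5 and IMR5, and ODC1 rose in LAN5 and SK-N-FI. Among the breakdown genes SAT1 and SMOX rose in all 3 sensitive lines. In SK-N-BE(2) none of the members passed the test. By the adjusted p of the authors' deposited tables, LAN5 had 9 of 10 members called, 6 higher and 3 lower, beside 41.7% of all tested genes, 22.5% higher and 19.2% lower. IMR5 had 7 of 10 called, 2 higher and 5 lower, beside 44.1%, with 22.6% higher and 21.6% lower. SK-N-FI had 7 of 10 called, 4 higher and 3 lower, beside 31.6%, with 16.8% higher and 14.8% lower. Of the genes that reach a mean of 100, which are called more often, 67%, 69.6% and 49.1% were called in LAN5, IMR5 and SK-N-FI, so the count in IMR5 is near the background. A call in the same direction in all 3 sensitive lines was found for 4 members, 2 higher and 2 lower. Of 18599 genes tested in these lines, 5.01% were higher in each and 5.83% were lower in each. The share among genes that reach a mean of 100, which are called more often, was not computed. AZIN1 and ATP13A3 were called in opposite directions in different lines, and PAOX was called in none. In the order LAN5, IMR5, SK-N-FI, SK-N-BE(2), the members' median log2 fold change was 0.26, -0.10, 0.08 and 0.01 in the authors' deposited tables, beside 0.09, 0.02, 0.01 and -0.00017 over all tested genes.

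**Figure D1:**
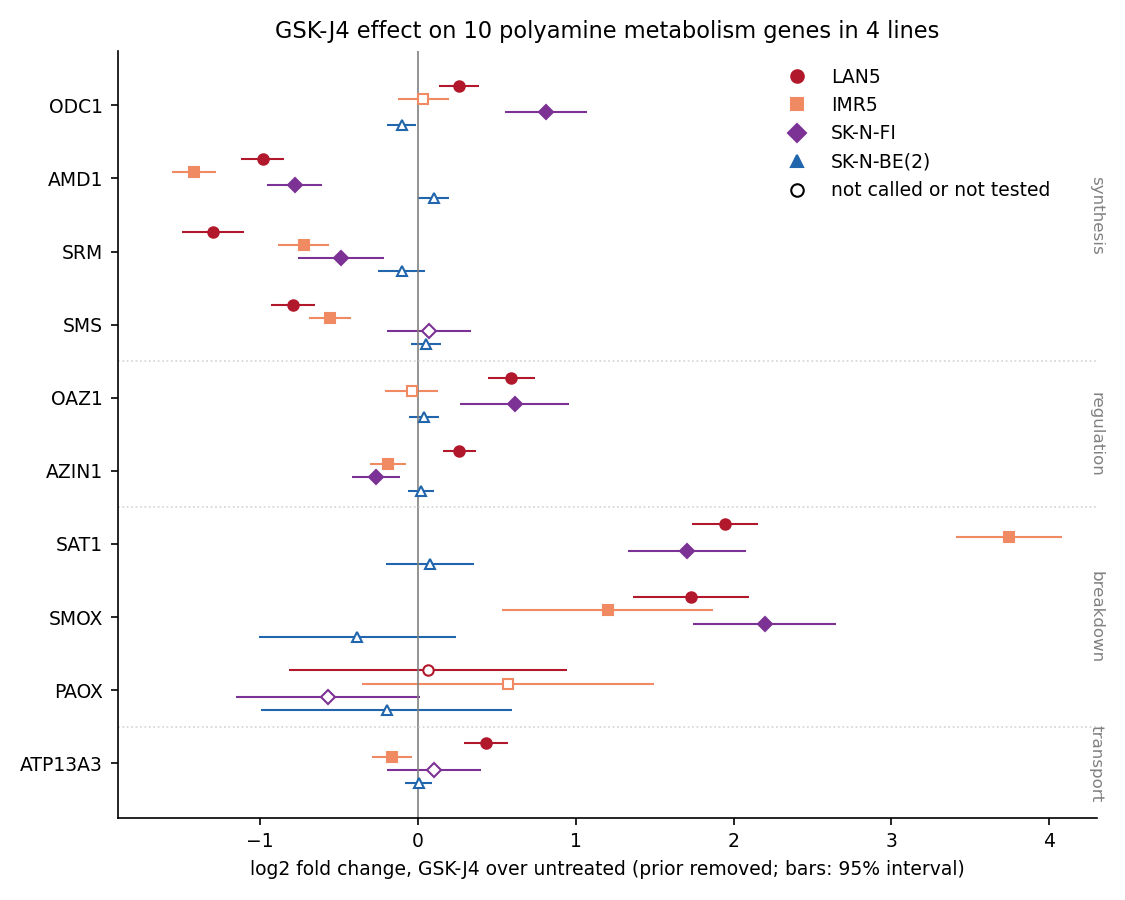
Log2 fold change of each member, GSK-J4 over untreated, with the prior removed (horizontal axis) in LAN5, IMR5, SK-N-FI and SK-N-BE(2), grouped by role; bars are 95% intervals and open symbols were not called or not tested. SAT1 and SMOX lie to the right of 0 in the 3 sensitive lines, AMD1 and SRM to the left, and the SK-N-BE(2) triangles are all open.

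AMD1, which supplies the aminopropyl group for both later steps, fell in each sensitive line. Its implied level was 89.4 CPM in GSK-J4-treated LAN5, against 177 in untreated LAN5, 61.8 against 165 in IMR5, and 111 against 189.9 in SK-N-FI. The untreated levels lay close together and the treated ones were all lower. The log2 fold changes were -0.98 ± 0.07, -1.42 ± 0.0712 and -0.78 ± 0.0886 for LAN5, IMR5 and SK-N-FI, with adjusted p of 2.94e-43, 5.73e-86 and 7.05e-17 in the authors' deposited tables.

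SRM, spermidine synthase, fell most in LAN5, where its implied level was 18.8 CPM with GSK-J4 and 46.2 without. The treated and untreated levels were 35.6 and 58.7 CPM in IMR5, and 26.3 and 36.8 in SK-N-FI. SRM thus stood lower with treatment in each sensitive line, by unequal amounts. The log2 fold changes were -1.30 ± 0.1, -0.72 ± 0.0826 and -0.48 ± 0.139 in LAN5, IMR5 and SK-N-FI, with adjusted p of 9.65e-37, 3.04e-17 and 0.00259 in the authors' deposited tables.

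SMS, spermine synthase, fell in the MYCN-amplified sensitive lines. Its implied level was 123 CPM with GSK-J4 and 214 without in LAN5, and 177 with and 261 without in IMR5, a log2 fold change of -0.79 ± 0.0705 and -0.56 ± 0.0667. In SK-N-FI it was 106 CPM with GSK-J4 and 101 without, a log2 fold change of 0.07 ± 0.136 that was not called (adjusted p = 0.754 in the authors' deposited table).

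ODC1 did not share the fall of the other synthesis genes. Its implied level was 313 CPM with GSK-J4 and 261 without in LAN5, 349 and 341 in IMR5, and 249.7 and 142 in SK-N-FI. The rise was largest in the line with the lowest untreated level. This is partly built in, since the implied untreated level is computed from the same fold. LAN5, IMR5 and SK-N-FI had log2 fold changes of 0.26 ± 0.0644, 0.04 ± 0.0829 and 0.81 ± 0.132, with adjusted p of 0.000181, 0.776 and 1.34e-08 in the authors' deposited tables. The 95% interval in IMR5 ran from -0.13 to 0.20. MYCN, the MYC family factor amplified in LAN5 and IMR5, fell by 1.91 ± 0.0489 in LAN5 and 1.08 ± 0.0709 in IMR5 on the log2 scale, and ODC1 was called higher in LAN5 and not called in IMR5. MYC, its relative, had a mean of 20.2 in LAN5 and 7.40 in IMR5 in the authors' deposited tables, and was called higher in LAN5 at 2.76 ± 0.495 (log2, prior removed). In SK-N-FI the authors' deposited table gives MYC a mean of 275 and MYCN a mean of 116, and neither was called.

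**Figure D2:**
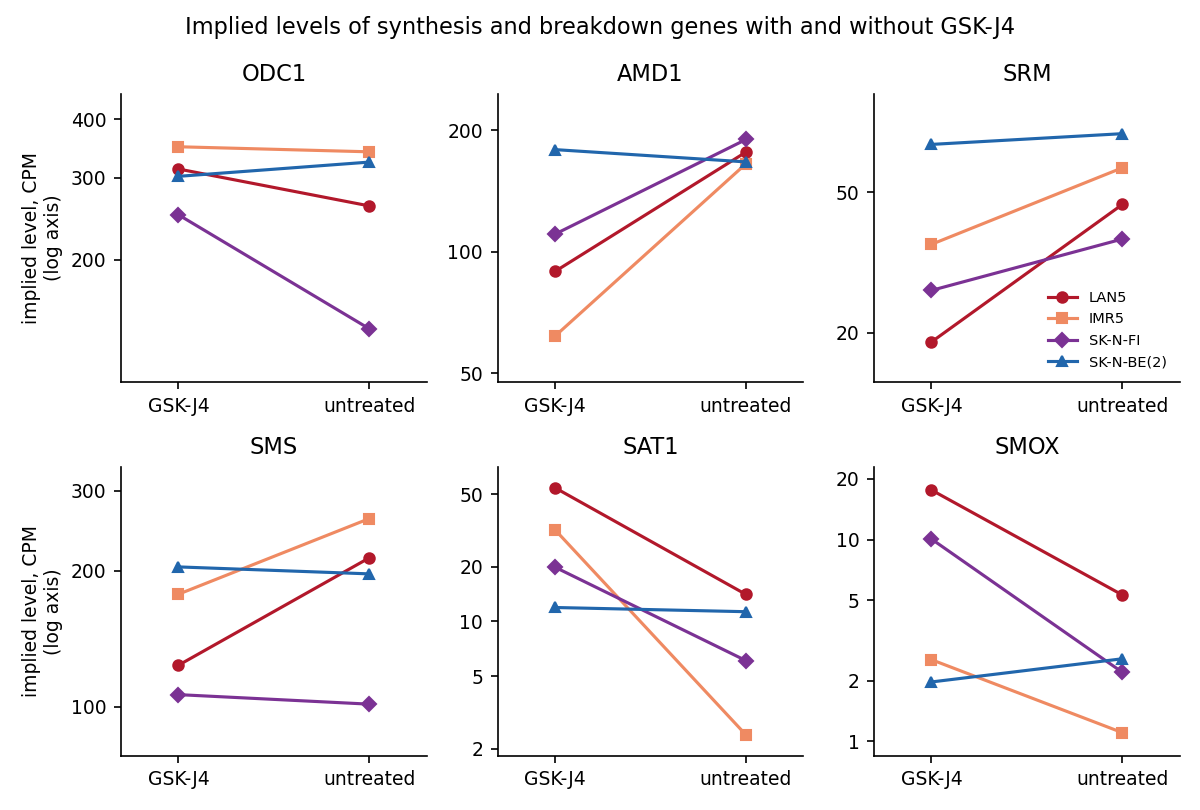
Implied level in CPM (log axis) of ODC1, AMD1, SRM, SMS, SAT1 and SMOX with GSK-J4 (left in each panel) and untreated (right), with 1 line per cell line and no error bars, since no value of a single library was used. For SAT1 the 3 sensitive lines stand at 19.8 to 54.2 CPM with GSK-J4 and 2.38 to 14.1 untreated, while SK-N-BE(2) stays at 11.9 and 11.3.

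SAT1, the acetyltransferase that starts polyamine breakdown, had the largest change among the members in LAN5 and IMR5. It stood at an implied 54.2 CPM with GSK-J4 and 14.1 without in LAN5, 31.9 and 2.38 in IMR5, and 19.8 and 6.09 in SK-N-FI. The order of the untreated levels was not that of the treated ones, since IMR5 was lowest without treatment and second with it among these lines. The log2 fold changes were 1.95 ± 0.106, 3.74 ± 0.171 and 1.71 ± 0.189 for LAN5, IMR5 and SK-N-FI, or 3.85-fold, 13.4-fold and 3.26-fold, with adjusted p of 2.04e-73, 2.96e-104 and 1.07e-17 in the authors' deposited tables.

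SMOX, spermine oxidase, rose in the same lines and had the largest change among the members in SK-N-FI. The authors' deposited tables give it mean normalized counts of 177, 35.4 and 98.7 for LAN5, IMR5 and SK-N-FI. The implied level was 17.6 CPM with GSK-J4 and 5.31 without in LAN5, 2.54 and 1.10 in IMR5, and 10.1 and 2.20 in SK-N-FI. The log2 fold changes were 1.73 ± 0.186, 1.20 ± 0.34 and 2.20 ± 0.23 in LAN5, IMR5 and SK-N-FI, with adjusted p of 2.15e-19, 0.00129 and 9.70e-20 in the authors' deposited tables. PAOX, the peroxisomal oxidase of acetylated polyamines, had means between 17.0 and 44.5 in the authors' deposited tables. Its log2 fold changes of 0.07 ± 0.448, 0.57 ± 0.472 and -0.57 ± 0.297 for LAN5, IMR5 and SK-N-FI had 95% intervals that included 0 in each, -0.81 to 0.94 in LAN5 and -1.15 to 0.01 in SK-N-FI.

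The regulators of ODC1 moved differently from line to line. OAZ1 rose in LAN5 and SK-N-FI, to 216 and 257 CPM with GSK-J4 against 143 and 168 without, and stood at 117 and 120.1 CPM in treated and untreated IMR5. Its log2 fold changes were 0.59 ± 0.0769, -0.04 ± 0.0848 and 0.61 ± 0.176 for LAN5, IMR5 and SK-N-FI, with adjusted p of 1.17e-13, 0.760 and 0.00250 in the authors' deposited tables. AZIN1 had implied levels of 430 and 358 CPM in treated and untreated LAN5, 239 and 273 in IMR5, and 712 and 853 in SK-N-FI. It rose in LAN5 by 0.26 ± 0.053 and fell in IMR5 by 0.19 ± 0.0575 and in SK-N-FI by 0.26 ± 0.0773 on the log2 scale, each called. ATP13A3 had 318 and 236 CPM in treated and untreated LAN5, 196 and 219 in IMR5, and 241 and 224 in SK-N-FI. It rose by 0.43 ± 0.0709 in LAN5, had -0.16 ± 0.065 in IMR5, which passed at 0.05 and not at 0.01 (the authors' deposited table gives an adjusted p of 0.0276), and 0.10 ± 0.152 in SK-N-FI, not called.

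In SK-N-BE(2), the line labelled as resistant, none of the 9 members with an adjusted p was called by the authors' deposited DESeq2 test, beside 2.48% of all tested genes (1.62% higher and 0.858% lower) and 2.87% of those with a mean of at least 100. At an unadjusted p under 0.05 there were 2, ODC1 (p = 0.0304) and AMD1 (p = 0.0442) in the authors' deposited table. The share of all genes at that threshold was not computed. ODC1 had 302 CPM with GSK-J4 and 324 without, AMD1 179 and 167, SRM 68.3 and 73.3, and SMS 204 and 197. The prior-removed log2 fold changes had 95% intervals of -0.19 to -0.01 for ODC1, 0.003 to 0.20 for AMD1, -0.25 to 0.05 for SRM and -0.04 to 0.14 for SMS. They were -0.05 to 0.13 for OAZ1, -0.06 to 0.10 for AZIN1 and -0.08 to 0.09 for ATP13A3. The interval for SAT1 was -0.20 to 0.35, so a rise of the size seen in the sensitive lines lies outside it; the standard error of SAT1 is near the ceiling of this table, and the other solution of the equations gave 0.11 ± 0.194. SMOX, with a mean of 36.4, had -0.38 ± 0.317, and PAOX, at 20.8, had no adjusted p in the authors' deposited table.

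The differences of effect between lines were tested over 8982 genes that reach a mean of 100 in every table, 8 of the 10 members among them, by a Wald test on prior-removed values adjusted over all of these genes. The errors cover the spread between libraries of a line, not the spread between lines of a class. Sensitive minus resistant, 6 of 8 members were called, 3 higher and 3 lower, beside 59.1% of all genes tested, 26.4% higher and 32.6% lower. SAT1 differed by 2.39 ± 0.169 (mean log2 fold change 2.46 in the sensitive lines and 0.08 in SK-N-BE(2), adjusted p = 1.21e-43), and AMD1 by -1.16 ± 0.0672 (-1.06 and 0.10, adjusted p = 6.84e-65). SRM differed by -0.73 ± 0.0994 and SMS by -0.48 ± 0.073, ODC1 by 0.47 ± 0.0732 and OAZ1 by 0.35 ± 0.0847. These calls held without any 1 sensitive line, but sizes moved. ODC1 was 0.25 without SK-N-FI, and SMS was -0.29 without LAN5 and -0.72 without SK-N-FI. OAZ1 was 0.56 without IMR5, 0.24 without SK-N-FI and 0.25 without LAN5, where it only just passed (adjusted p = 0.0410). AZIN1 and ATP13A3 were not called, with 95% intervals of -0.19 to 0.03 and -0.03 to 0.26; AZIN1 was called without LAN5 (-0.25, adjusted p = 0.000348) and ATP13A3 without IMR5 (0.26, adjusted p = 0.0129). Their signs turned, uncalled, without SK-N-FI for AZIN1 (0.02) and without LAN5 for ATP13A3 (-0.04). With a minimum mean of 20, SMOX differed by 2.09 ± 0.351 (adjusted p = 1.68e-08). Its value in SK-N-BE(2) was -0.38 with the solution used and -0.10 with the other, and the difference was not run with the other.

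Between the MYCN-amplified sensitive lines and SK-N-FI, 6 of 8 members were called, 2 higher and 4 lower, beside 47.2% of all genes tested, 18.9% higher and 28.4% lower. All 4 synthesis genes had a lower log2 fold change in the amplified lines, with differences of -0.66 ± 0.142 for ODC1, -0.42 ± 0.102 for AMD1, -0.52 ± 0.154 for SRM and -0.74 ± 0.144 for SMS, with adjusted p between 1.95e-06 and 0.00218. The mean log2 fold changes were 0.15 in the amplified lines and 0.81 in SK-N-FI for ODC1, and -0.67 and 0.07 for SMS. SAT1 was 1.14 ± 0.214 higher and AZIN1 0.30 ± 0.0867 higher in the amplified lines. OAZ1 (-0.34 ± 0.185) and ATP13A3 (0.03 ± 0.159) were not called. ODC1 and SMS were called with either amplified line alone against SK-N-FI, and the other 4 calls rested on 1 line. SAT1 was 0.24 without IMR5 (adjusted p = 0.356) and 2.04 without LAN5, and AZIN1 was 0.07 without LAN5 (adjusted p = 0.553) and 0.52 without IMR5. SRM was -0.24 without LAN5 (adjusted p = 0.217) and -0.81 without IMR5, and AMD1 was -0.20 without IMR5 (adjusted p = 0.118) and -0.64 without LAN5. OAZ1 was called without LAN5 (-0.65, adjusted p = 0.00270) and stood at -0.02 without IMR5, and ATP13A3, called in neither case, was -0.27 without LAN5 and 0.33 without IMR5. With a minimum mean of 20, SMOX differed by -0.73 ± 0.301 (adjusted p = 0.0366), a lower log2 fold change in the amplified lines and so opposite to SAT1. For SMOX, leaving out a line was not run.

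LAN5 and IMR5, which carry the same labels, differed in 7 of 8 members, 4 higher and 3 lower, beside 61% of all genes tested, 27.3% higher and 33.7% lower. SAT1 had the largest difference, -1.80 ± 0.201 for LAN5 minus IMR5, where IMR5 rose more. SRM fell more in LAN5 (-0.58 ± 0.13) and AMD1 fell more in IMR5 (0.44 ± 0.0998). OAZ1 (0.63 ± 0.114), AZIN1 (0.45 ± 0.0782) and ATP13A3 (0.59 ± 0.0962) each had the higher log2 fold change in LAN5. SMS differed by -0.23 ± 0.097 (adjusted p = 0.0280), a call lost after centring on the median of all genes (adjusted p = 0.0998). ODC1 differed by 0.23 ± 0.105 (adjusted p = 0.0506), and was called after centring (0.28, adjusted p = 0.0138) and with deposited values (adjusted p = 0.0499). For OAZ1, AZIN1 and ATP13A3 the difference between these 2 lines of like labels was larger in size than that between sensitive and resistant lines, and for the other 5 members it was smaller.

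**Figure D3:**
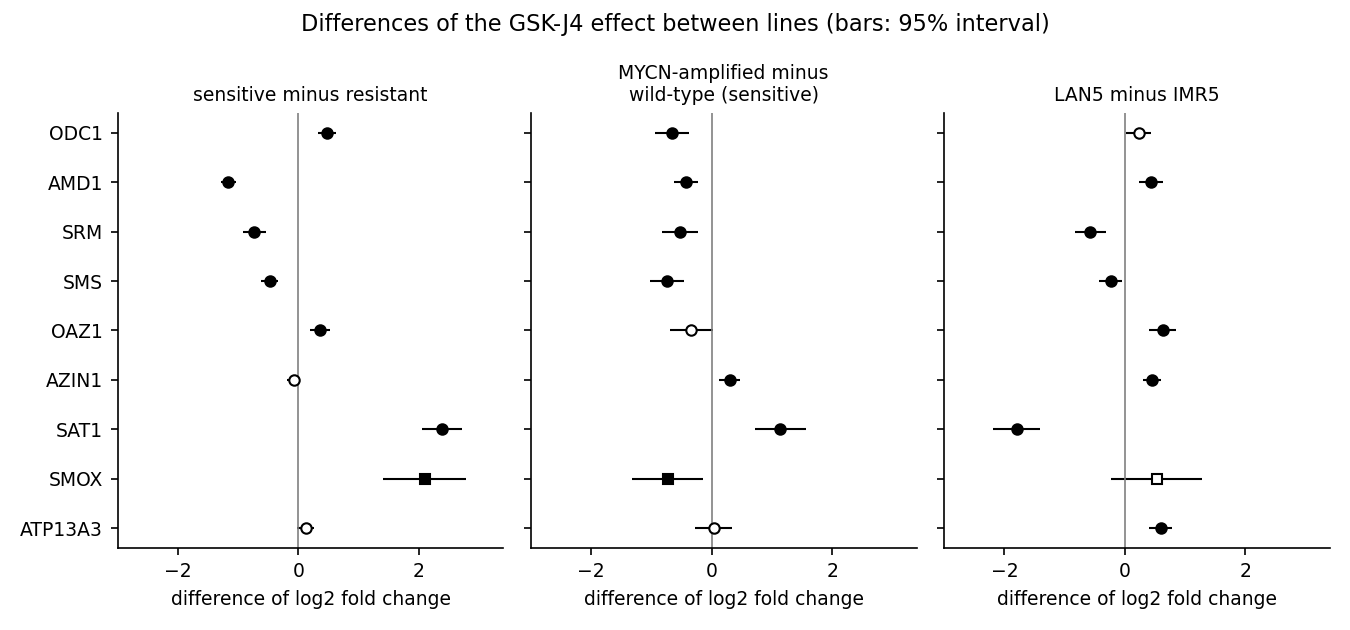
Difference of the log2 fold change between lines (horizontal axis) for 9 members in 3 contrasts, with 95% intervals; filled symbols passed an adjusted p under 0.05, circles are from genes with a mean of at least 100 and the SMOX squares from genes with a mean of at least 20. SAT1 is at 2.39 for sensitive minus resistant and at -1.80 for LAN5 minus IMR5.

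Mean levels in CPM were set side by side between lines, over both conditions and without a test, since the tables were normalized separately and carry no spread. ODC1 had 287, 345, 196 and 313 CPM (LAN5, IMR5, SK-N-FI, SK-N-BE(2)), placing it above 96.8% of genes with a mean above 0 in SK-N-FI and above 98.4% to 98.7% in the other lines. MYCN had 1579, 586, 7.24 and 2426 CPM in the same order of lines. ODC1 spanned 1.76-fold across lines, and both genes were lowest in SK-N-FI. Implied untreated ODC1 was 1.83 to 2.39 times as high in the amplified lines as in SK-N-FI, SMS 1.94 to 2.57 times and SRM 1.25 to 1.99 times, while AMD1 was at 0.871 to 0.931 times. AZIN1 was highest in SK-N-FI, at 783 CPM, against 256 to 465 in the other lines. SMOX varied most, with 11.5 CPM in LAN5, 6.13 in SK-N-FI, 2.27 in SK-N-BE(2) and 1.82 in IMR5. All 10 members kept the same order of lines when tables were scaled by median ratios.

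**Figure D4:**
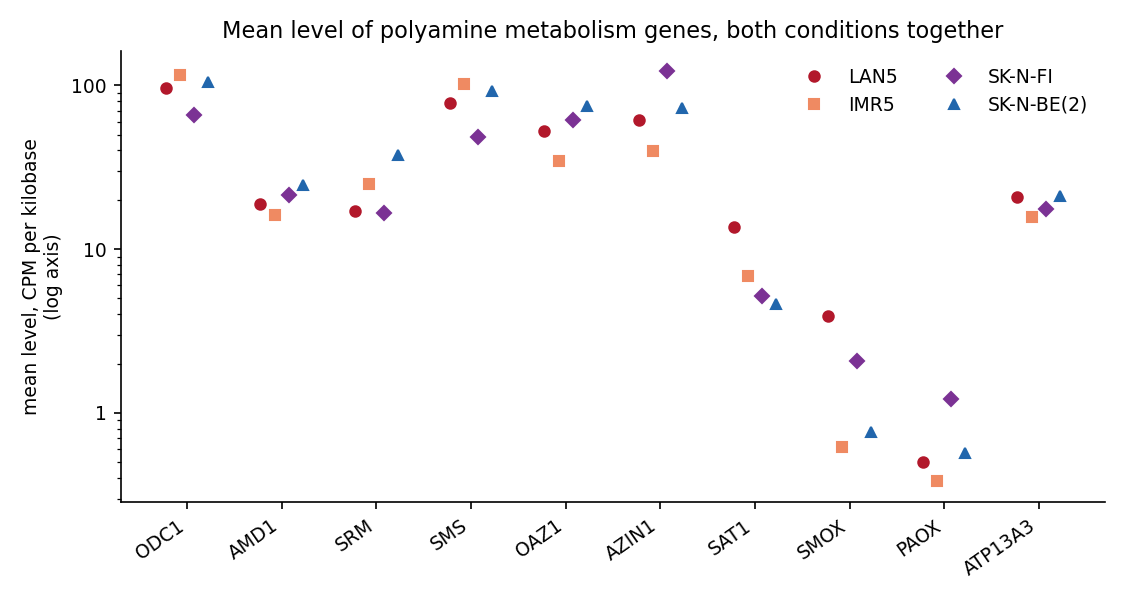
Mean level in CPM per kilobase of GENCODE 29 exons (log axis) of each member in LAN5, IMR5, SK-N-FI and SK-N-BE(2), over treated and untreated libraries together. ODC1 lies between 66.0 and 116 and AZIN1 between 39.9 and 122, and the breakdown genes lie below them, with PAOX between 0.383 and 1.21.

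Per kilobase of exon, the levels formed tiers that kept their order within each of the 4 lines. ODC1, SMS, OAZ1 and AZIN1 had 34.5 to 122 CPM per kilobase. AMD1, SRM and ATP13A3 had 15.6 to 37.3, SAT1 4.65 to 13.7, and SMOX and PAOX 0.383 to 3.89. The exon union counts every annotated isoform, so these levels are approximate.

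Among 29 further genes of the pathway, taken as whole lists, 6 were called higher and 8 lower of 26 tested in LAN5, 8 higher and 9 lower of 26 in IMR5, and 6 higher and 3 lower of 24 in SK-N-FI, and the authors' deposited tables give them a median log2 fold change of -0.01, -0.14 and 0.13 in these lines. Of all tested genes 41.7%, 44.1% and 31.6% were called in LAN5, IMR5 and SK-N-FI, and 67%, 69.6% and 49.1% of those that reach a mean of 100. In each of the 3 sensitive lines, the share called among the further genes tested lies above that of all tested genes and below that of genes with a mean of 100. The separate lists hold 4 to 12 genes each, so their counts are a description only. None of 23 was called in SK-N-BE(2) by the authors' deposited DESeq2 test, beside 2.48% of all tested genes, so this count does not set them apart. At an unadjusted p under 0.05 there were 4, and the share of all genes at that threshold was not computed. Of the arginine and ornithine genes, 2 rose and 1 fell of 6 tested in LAN5, 2 rose and 0 fell of 5 in IMR5, and 2 rose and 1 fell of 5 in SK-N-FI. The gene named by rule in most lines was ARG2, the mitochondrial arginase that yields ornithine, at 1.34 ± 0.129, 2.72 ± 0.144 and 1.08 ± 0.231 for LAN5, IMR5 and SK-N-FI (log2, prior removed), each called, and 0.37 ± 0.162 in SK-N-BE(2), not called. SLC25A15, the mitochondrial ornithine carrier, fell in SK-N-FI by 0.62 ± 0.128. Among other polyamine enzymes, regulators and transporters, 3 rose and 1 fell of 9 tested in LAN5, 3 rose and 3 fell of 10 in IMR5, and 3 rose and 0 fell of 8 in SK-N-FI. SLC3A2, an amino acid transporter subunit also linked to polyamine export, rose by 2.10 ± 0.0811, 1.83 ± 0.113 and 2.58 ± 0.14 in the 3 sensitive lines and had -0.17 ± 0.0574 in SK-N-BE(2), not called.

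The methionine genes, which supply AMD1 and recycle the methylthioadenosine left by SRM and SMS, form a list of 7 that were all tested in each line. Of these, none rose and 4 fell in LAN5, 1 rose and 5 fell in IMR5, and none rose and 2 fell in SK-N-FI. Of all tested genes 41.7%, 44.1% and 31.6% were called in these lines, and 19.2%, 21.6% and 14.8% were called lower. Among genes that reach a mean of 100, 67%, 69.6% and 49.1% were called. MTAP, the first enzyme of the salvage, fell by 0.64 ± 0.0733, 0.54 ± 0.0757 and 0.29 ± 0.104 in LAN5, IMR5 and SK-N-FI on the log2 scale. MAT2A, which makes S-adenosylmethionine, had 0.09 ± 0.0553 in LAN5, not called, and fell by 1.36 ± 0.0618 in IMR5 and by 0.37 ± 0.0997 in SK-N-FI. ADI1, a salvage enzyme, fell by 0.56 ± 0.106 in LAN5 and by 1.68 ± 0.134 in IMR5, and was not called in SK-N-FI (0.16 ± 0.134) or SK-N-BE(2) (-0.10 ± 0.0546).

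Spermidine is also the source of hypusine, the modified residue of the translation factor eIF5A. Of 4 genes of this pathway 1 rose and 2 fell in LAN5, 2 rose and 1 fell in IMR5, and 1 rose and 0 fell in SK-N-FI, a list too short to set apart from the 41.7%, 44.1% and 31.6% called among all genes. EIF5A fell by 0.58 ± 0.0716 in LAN5 and by 1.24 ± 0.0816 in IMR5 on the log2 scale and had -0.27 ± 0.169 in SK-N-FI, not called. Its relative EIF5A2 rose by 0.78 ± 0.122, 0.85 ± 0.101 and 0.44 ± 0.114 in the 3 sensitive lines. DOHH, the second enzyme of the modification, was called in none of the lines, with -0.29 ± 0.171, -0.14 ± 0.21, -0.00011 ± 0.206 and -0.27 ± 0.115 in LAN5, IMR5, SK-N-FI and SK-N-BE(2).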

How the data were processed

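Polyadenylated RNA was sequenced from strand-specific libraries, per the labels' protocols, and reads were handled with FastQC, STAR and DESeq2 on build hg38, per the submitters' processing notes. Which annotation, counting tool, strand setting, design formula and contrast direction were used is not given in the sources used here. Each deposited table holds the authors' own comparison: a signal column (mean normalized count), a log2 fold change, its standard error, a Wald score, and a p-value with its adjusted p-value. These were used as deposited and not tested again. No label says that the libraries of a group are separate cultures, and p-values then reflect only how those libraries vary.

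The prior on the fold changes was removed for each gene from the shrunken value and its standard error, with a prior SD set to 2 times the largest standard error of that table (LAN5 0.539, IMR5 0.49, SK-N-FI 0.428, SK-N-BE(2) 0.0828). Of the 2 solutions the one with the smaller error was used for genes above a turning point in mean (3.15, 4.01, 4.66 and 134), where standard errors smoothed over 501 genes were highest, and the other for genes below it. In the SK-N-BE(2) table the score differed from fold change over error by more than rounding for 19488 genes, so the equations may not hold exactly there. Differences between lines used two-sided Wald tests with Benjamini-Hochberg adjustment over all genes (Python 3.11.15, SciPy 1.17.1). The code was run on simulated data made with the same equations and errors and no spread between lines of a class. That run therefore cannot show whether the equations hold for the deposited values. The design foresaw counts per library as a possible case, which did not apply, so edgeR was not run.

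The members and gene lists were chosen with earlier results of these data known. All 10 members are named, and of 29 further genes those called in at least 3 lines or with the smallest adjusted p of their list in a line, with MYCN and MYC as factors of ODC1.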

Additional observations from a re-analysis of the deposited data

Results flagged for a closer look

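The results below are differences of the GSK-J4 effect between lines that passed an adjusted p under 0.05 in the Wald test, given as differences of prior-removed log2 fold change. For sensitive minus resistant lines they were 0.47 for ODC1, -1.16 for AMD1, -0.73 for SRM, -0.48 for SMS, 0.35 for OAZ1 and 2.39 for SAT1. For MYCN-amplified minus MYCN wild-type sensitive lines they were -0.66 for ODC1, -0.42 for AMD1, -0.52 for SRM, -0.74 for SMS, 0.30 for AZIN1 and 1.14 for SAT1. Of these, AMD1 and SAT1 were not called without IMR5 (-0.20 and 0.24), and SRM and AZIN1 were not called without LAN5 (-0.24 and 0.07). For LAN5 minus IMR5 they were 0.44 for AMD1, -0.58 for SRM, -0.23 for SMS, 0.63 for OAZ1, 0.45 for AZIN1, -1.80 for SAT1 and 0.59 for ATP13A3. With a minimum mean of 20, SMOX also passed, at 2.09 for sensitive minus resistant and -0.73 for MYCN-amplified minus wild-type sensitive lines. No value of a single library was used, so no search for outlying libraries was made.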

How the results depend on the processing

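The counts of members called stayed within 1.5 times under the alternatives run for them, but for 1 count. These alternatives were a stricter threshold and centring within lines, and deposited values, a lower minimum mean, centring and leaving out each sensitive line for differences. That count was members called higher in MYCN-amplified than in wild-type lines, 1 without LAN5 and 1 without IMR5 against 2 with both, an alternative chosen after seeing the data. Among counts over all genes, higher calls in LAN5 were 3141 with a mean of at least 100 against 5792 without a minimum, and SK-N-BE(2) had 111 higher and 59 lower genes at an adjusted p under 0.01 against 217 and 115 at 0.05. For single members 242 of the values kept direction and side of the threshold, 5 newly passed it, 6 no longer did, and 3 uncalled ones changed sign: for sensitive minus resistant ATP13A3 without LAN5 (-0.036) and AZIN1 without SK-N-FI (0.017), and for MYCN-amplified minus wild-type ATP13A3 without LAN5 (-0.27). The cause was not tested. Among the 242, 39 values with the prior removed and 9 with the other solution within SK-N-BE(2) keep the authors' adjusted p and sign. Their agreement was thus fixed in advance. Of the 8 with the other solution for SAT1 in the differences, only SAT1 had a new value. The other solution of the equations in SK-N-BE(2) was also chosen after seeing the data. Put in for SAT1 in sensitive minus resistant, it gave 2.36 against 2.39, still called. Within the line, calls follow the authors' adjusted p and could not change with the solution. Sizes there moved, to -1.27 for ODC1 and 1.10 for AMD1. No paired analysis was possible because the tables hold no columns of single libraries, and leaving out replicates, a replicate block and other normalizations were not run for the same reason. Depth per library is unknown.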

Other observations

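The ratio of the mean counts of ODC1 and OAZ1, in which the scaling of a table cancels, was 1.60, 2.91, 0.923 and 1.22 for LAN5, IMR5, SK-N-FI and SK-N-BE(2), from the means of the authors' deposited tables over both conditions.

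By Euclidean distance over the 4 prior-removed log2 fold changes, the 3 genes nearest to ODC1 among those with a mean of at least 100 in every table were TATDN1 (0.107), DNAJC2 (0.115) and ANAPC16 (0.119). TATDN1 had log2 fold changes of 0.23, 0.13, 0.76 and -0.10 in LAN5, IMR5, SK-N-FI and SK-N-BE(2). The nearest to SAT1 were OPTN, an autophagy receptor gene (0.311), ERN1, a sensor of unfolded proteins (0.867), and ASNS, asparagine synthetase (0.978). OPTN had 2.02, 3.64, 1.48 and 0.25 in the same order of lines. The distances cover 4 values each and are a description.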
